A study of Mus musculus with 4 samples.

Results

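The genes of the mitochondrial ribosome were examined in retina of mice treated with streptozotocin (STZ) and of control mice. Members were the genes of the deposited table whose symbol begins with Mrpl or Mrps and a number, and which reached at least 10 normalized counts in at least 2 of the 4 libraries. Such a symbol was borne by 81 of 43280 genes, and 80 passed, among 18127 passing genes in all: 49 with large subunit symbols (Mrpl) and 31 with small subunit symbols (Mrps). They were chosen by these normalized counts, so their presence is no result. Mrpl53 was the 1 gene left out, at 0 in both controls and in STZ 2L and 0.827 normalized counts, or 1 read, in STZ 4R. The lowest members inside the threshold were the pseudogenes Mrps36-ps2, at 52.3 to 63.3 normalized counts, and Mrps36-ps1, at 86.5 to 128.

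The mitochondrial ribosome sits in the matrix of the mitochondrion and translates the few mRNAs of the mitochondrial genome, all of which encode core subunits of the respiratory chain and the ATP synthase. Its RNAs come from the mitochondrial genome, while its proteins are encoded in the nucleus, made in the cytosol and imported. Photoreceptors, the most numerous cells of the mouse retina, pack mitochondria into their inner segments and have a high demand for ATP.

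All mice were wildtype, with C6/BL6J as the labelled strain. The STZ group received streptozotocin, which destroys the beta cells of the pancreas, at 50 mg/kg a day on 5 days from 6 weeks of age, and blood glucose above 25 mM was checked 10 days after. Controls received the citrate buffer, and per the labels' protocols retinas of both groups were taken at 18 weeks of age. The column names of the values instead carry a shorter time in weeks, without saying from when it counts. The time between injection and collection is therefore not settled here. Each group had 2 mRNA libraries, called here 2L and 4R after the tags of the table's columns. Whether each library is its own animal is not stated in the labels, and p-values therefore reflect only the spread between these libraries, which may be technical.

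The libraries held 29352330 to 39299653 reads assigned to genes. The rod genes took 8.47% to 11.7% of reads in every library, as a retina would give. The share of a list of 23 lens genes was 9.51% in STZ 2L and at most 0.0242% in any other library, and 13 surface epithelium genes took 0.0398% and 0.0371% in the STZ libraries against 0.00640% and 0.00331% in the controls. Of 8 cone genes all 8 were lower in STZ, at a median log2 difference of -0.35, and of 11 rod genes 10, at -0.11 (51.1% of all tested genes were). From the control mean the rod median was -0.23 in STZ 2L and 0.030 in STZ 4R. All 7 retinal pigment epithelium genes were higher (median 0.72), with control 2L standing apart at -1.01 from the control mean, and all 5 red blood cell genes were lower (-0.42). The red blood cell medians were 0.73 and -0.73 from the control mean in controls 2L and 4R. In STZ 2L and 4R they were -0.15 and -0.62, and 0 of the 5 genes had both STZ libraries below both controls. The part of these cells in the results was not tested. In bulk tissue, fewer cells of a type and less RNA per cell cannot be told apart.

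Transcripts of most mitochondrial ribosome genes were slightly less abundant in STZ retina, and no single gene passed the test. The mean was lower in STZ for 63 of 80 members, against 51.1% of all tested genes. The median log2 difference over the members was -0.12, or -7.90% as a level, and -0.01 over all 18127 tested genes. Much of it came with STZ 4R. Without that library the median over the members was -0.05, with 46 of 80 lower (57.5%, all genes 51.3%). The 80 differences ran from -0.47 for Mrps21 to 0.48 for Mrps6, and 61 of them were smaller than 0.25 in either direction. Both STZ libraries lay below both controls for 24 members (30.0%) and above both for 1, Mrps22, while 14.3% of all tested genes lay below and 14.3% above. Limma called 0 of 80 members at an adjusted p of 0.05 (smallest adjusted p = 0.999), and 0.0% of all tested genes in either direction. At an unadjusted p under 0.05 limma had 1 member, Mrps11, against 0.447% of tested genes lower and 2.31% higher. The edgeR quasi-likelihood test on the recovered reads called 0 members (0.0% of all genes either way), with 1 member at an unadjusted p under 0.05, against 2.88% of genes higher and 0.392% lower. DESeq2 on those reads also called 0 members, with 0.259% of genes higher and 0.0% lower. Its unadjusted p was under 0.05 for 1 member, against 2.65% of genes higher and 0.281% lower. By the authors' deposited table, no member had an adjusted p under 0.05 (0 of 80), against 0.281% of genes higher and 0.0% lower, and Mrps11 was the 1 member with an unadjusted p under 0.05, at a log2 fold change of -0.47.

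**Figure D1:**
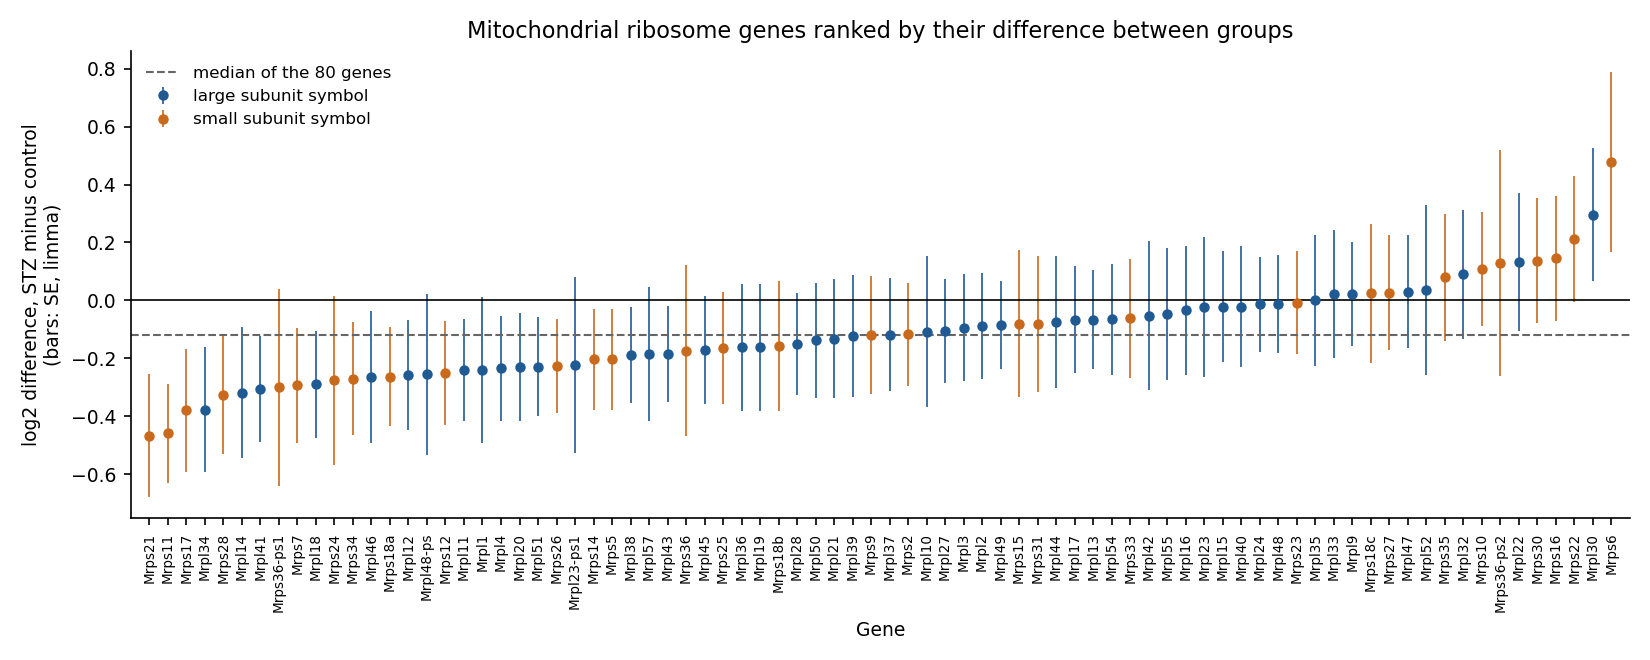
The 80 mitochondrial ribosome genes ordered by the log2 difference of STZ minus control on the log2(normalized count + 1) scale, with standard errors from limma (n = 2 libraries a group) and the median of -0.12 as a dashed line. Most points lie below 0, from -0.47 to 0.48, and the error bars cross 0 for the genes in the middle of the order.

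Promoters of 5 members with large differences are shown. In background knowledge, many nuclear genes of mitochondrial proteins are targets of NRF1, the ETS factor GABPA and YY1. Of the 5, 4 were picked because they hold a motif of these factors in the 250 bases shown. Mrps17 was picked because it holds none there. Mrps6, Mrpl14 and Mrpl41, whose differences were larger than that of Mrpl30, also held none there and are not shown. The shares in the next paragraph also count 50 bases after the start, which were not marked here. Each stretch is the 250 bases before the start in RefSeq's GRCm38.p6, the build called mm10, and the capitals mark a match to a motif of these 3 factors on either strand. Mrps21 (chr3:95871515-95871764, minus strand) and Mrpl30 (chr1:37890227-37890476, plus strand) each held a match to the NRF1 motif, GCGCA and GCGC with any base between them, read on the opposite strand. Mrps11 (chr7:78782881-78783130, plus strand) held the YY1 motif ATGGCGGC on the opposite strand, and Mrpl34 (chr8:71464676-71464925, plus strand) the ETS motif CCGGAAG. Mrps17 (chr5:129715247-129715496, plus strand) has no capitals.
Mrps21: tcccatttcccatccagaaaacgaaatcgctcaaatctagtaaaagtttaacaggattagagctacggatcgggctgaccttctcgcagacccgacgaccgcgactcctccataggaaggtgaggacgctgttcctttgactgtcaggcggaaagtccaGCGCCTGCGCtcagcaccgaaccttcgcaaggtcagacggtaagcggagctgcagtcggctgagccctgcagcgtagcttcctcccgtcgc
Mrps11: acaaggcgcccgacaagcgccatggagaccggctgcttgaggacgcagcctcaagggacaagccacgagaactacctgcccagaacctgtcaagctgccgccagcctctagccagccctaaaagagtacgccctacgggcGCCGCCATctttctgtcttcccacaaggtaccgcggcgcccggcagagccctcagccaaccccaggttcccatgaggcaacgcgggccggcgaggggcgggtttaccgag
Mrpl34: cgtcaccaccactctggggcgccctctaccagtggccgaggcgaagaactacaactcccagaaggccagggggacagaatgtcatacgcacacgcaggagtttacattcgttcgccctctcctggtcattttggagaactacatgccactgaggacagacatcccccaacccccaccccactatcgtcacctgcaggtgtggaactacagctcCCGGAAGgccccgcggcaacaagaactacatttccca
Mrpl30: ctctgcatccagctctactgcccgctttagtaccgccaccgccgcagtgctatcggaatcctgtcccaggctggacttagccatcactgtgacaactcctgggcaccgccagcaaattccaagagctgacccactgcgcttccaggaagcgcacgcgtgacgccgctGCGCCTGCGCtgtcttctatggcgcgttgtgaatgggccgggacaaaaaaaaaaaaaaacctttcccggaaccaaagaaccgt
Mrps17: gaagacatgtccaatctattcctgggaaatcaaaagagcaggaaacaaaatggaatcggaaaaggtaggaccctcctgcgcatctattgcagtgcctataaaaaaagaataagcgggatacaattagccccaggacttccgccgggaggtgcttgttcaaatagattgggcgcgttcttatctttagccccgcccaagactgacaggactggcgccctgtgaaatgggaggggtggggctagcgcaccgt

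RefSeq promoters of 300 bases, 250 before and 50 after the start, were at hand for 67 members (73 promoters). The ETS motif lay in 32.9% of them, against 14.9% of the promoters of all tested genes and 8.86% of all 32851 promoters. The NRF1 motif lay in 17.8%, against 8.63% and 4.60%, and the YY1 motif in 15.1%, against 4.06% and 2.24%. By subunit, the NRF1 motif was in 21.7% of large and 11.1% of small subunit promoters, and the ETS motif in 28.3% and 40.7%. The CCAAT box (CCAAT) lay in 39.7%, against 37.2% and 37.4%, and the TATA box (TATAAA) in 6.85%, against 7.60% and 13.6%. None of the 5 motifs contains another, and a match is a string of letters, not a measured site. By motif, the median log2 difference was -0.12 for 13 genes with the NRF1 motif and -0.11 for 54 without it, and -0.10 for 24 with the ETS motif and -0.12 for 43 without. For YY1 the medians were -0.11 for 11 genes with the motif and -0.12 for 56 without. The 5 genes with a TATA box, all lower, had a median of -0.26 and the 62 without it -0.11, and for the CCAAT box the medians were -0.13 for 26 genes and -0.09 for 41. No difference between genes with and without a motif was tested. Of the factors, Gabpa read 694 and 768 normalized counts in controls 2L and 4R and 869 and 910 in STZ, and Yy1 read 912 and 886 and then 1086 and 1049. For each, both STZ libraries lay above both controls, as they did for 14.3% of all tested genes. Nrf1 read 1475 and 1655 normalized counts in the controls and 1429 and 1831 in STZ, with overlapping groups and a log2 difference of 0.05 ± 0.18. None of the 3 passed (limma, adjusted p = 0.999 each).

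The small subunit, which binds the mRNA and decodes it, held the largest differences in both directions. Its median log2 difference was -0.16, with 22 of 31 genes lower (51.1% of all tested genes were), 12 with both STZ libraries below both controls and 1 above (14.3% of all tested genes each way). Mrps11 (ENSMUSG00000030611.10, chromosome 7, 78783119 to 78792989, plus strand, mm10), a protein with a counterpart in the bacterial ribosome, read 1560 and 1897 normalized counts in controls 2L and 4R and 1252 and 1250 in STZ 2L and 4R. The STZ libraries were nearly equal and both lay below the lower control. The means were 1729 ± 238 and 1251 ± 1.44 (SD, n = 2). The log2 difference was -0.46 ± 0.17 (SE; limma, adjusted p = 0.999). Leaving out any 1 library kept it between -0.32 and -0.60.

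Mrps21 (chromosome 3, 95862634 to 95871519, minus strand), another protein with a bacterial counterpart, read 1276 and 1133 normalized counts in controls 2L and 4R, and 1035 and 730 in the STZ pair. Both STZ libraries lay below both controls, STZ 4R by far the lower. The log2 difference was -0.47 ± 0.21, and it was -0.22 without STZ 4R and -0.72 without STZ 2L. Mrps17 (chromosome 5, 129715497 to 129722556) read 711 and 868 normalized counts in the controls and 534 and 682 in STZ 2L and 4R, so here STZ 2L was the lower. Its log2 difference was -0.38 ± 0.21. Mrps28, at -0.33 ± 0.21, and Mrps18a, at -0.26 ± 0.17, also had both STZ libraries below both controls. Mrps28 read 726 and 951 normalized counts in the controls and 706 and 622 in STZ, and its difference ran from -0.13 without control 4R to -0.52 without control 2L. Mrps18a read 1210 and 1401 and then 1071 and 1099, from -0.16 to -0.37 without the same libraries. That of Mrps17 ran from -0.20 without STZ 2L to -0.56 without STZ 4R. Mrps18a, like Mrps30, carries a small subunit symbol but sits in the large subunit in mammalian structures.

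Mrps7 and Mrps24, proteins of the small subunit with bacterial counterparts, overlapped between the groups. Mrps7, the highest small subunit gene, read 1970 and 2601 normalized counts in controls 2L and 4R and 2071 and 1647 in STZ 2L and 4R, a log2 difference of -0.29 ± 0.20 that was -0.09 without control 4R and -0.49 without control 2L. Mrps24 read 1472 and 1256 in the controls, and 1566 and 805 in the STZ pair. Its STZ libraries lay on either side of the controls, so its difference of -0.28 ± 0.29 came with STZ 4R and turned to 0.20 without it.

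Mrps6 (chromosome 16, 92058270 to 92112227, plus strand) had the largest difference upward. It read 374 and 495 normalized counts in controls 2L and 4R, and 819 and 439 in the STZ pair. Only STZ 2L, the library with 9.51% lens reads, stood above the controls, and STZ 4R lay between them. The log2 difference was 0.48 ± 0.31 (limma, adjusted p = 0.999). Leaving out STZ 4R raised it to 0.93, while leaving out STZ 2L brought it down to 0.029. Either omission leaves only 1 STZ library, so these values are given as sizes and not as calls. Mrps6 shares 159 exon bases on the same strand with Slc5a3, the sodium and myo-inositol cotransporter that cells use to take up an osmolyte. Mrps6 also shares 305 exon bases on the same strand with Gm49711, for which no counts were at hand. Slc5a3, singled out after its values were seen, read 312 and 241 normalized counts in the controls and 511 and 298 in the STZ pair, with 2L again the highest. Its log2 difference was 0.51 ± 0.30, and reads of the shared bases cannot be told apart. The part of the lens genes, of Slc5a3 and of Gm49711 in the Mrps6 value was not tested.

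Mrps22, a small subunit protein specific to mitochondria and named here after its values were seen, was the 1 member with both STZ libraries above both controls. It read 317 and 366 normalized counts in controls 2L and 4R and 403 and 388 in STZ 2L and 4R, a log2 difference of 0.21 ± 0.22. Mrps30 overlapped between the groups at 0.14 ± 0.22 and stood at -0.019 without STZ 2L. Mrps36, whose product is now placed in the oxoglutarate dehydrogenase complex and not in the ribosome, read 348 and 227 normalized counts in the controls and 289 and 215 in STZ, and its difference was -0.17 ± 0.30. Its pseudogene Mrps36-ps1 stood at -0.30 ± 0.34, and at -0.07 without control 4R. Reads of Mrps36, Mrpl23 and Mrpl48 may have been split with their pseudogenes.

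**Figure D2:**
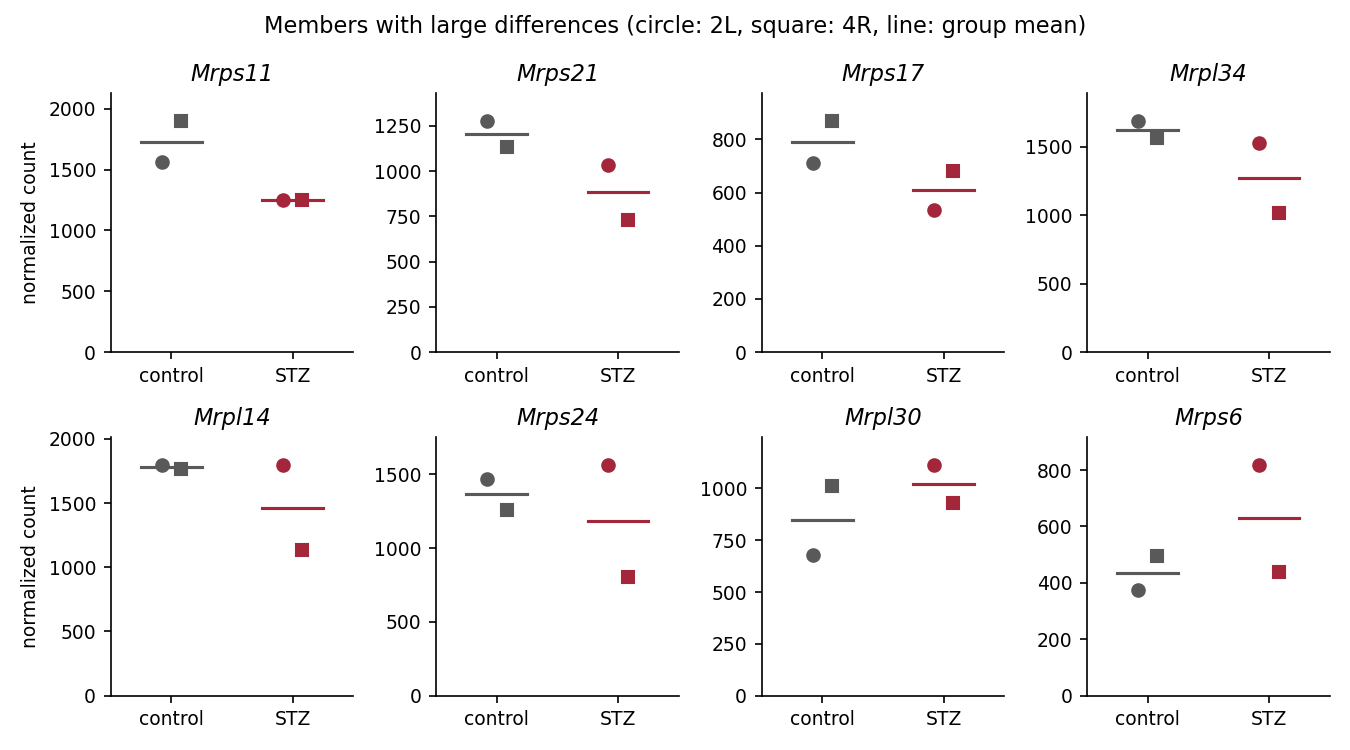
Normalized counts (linear axis from 0) of 8 members in each library, circles for 2L and squares for 4R, with the mean of each group as a line. In Mrps11, Mrps21, Mrps17 and Mrpl34 both STZ points lie under both control points, Mrpl14 and Mrps24 are low in STZ 4R only, and Mrps6 is high in STZ 2L only.

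The large subunit, which joins amino acids into the chain and holds the exit tunnel, had a median log2 difference of -0.11. Of its 49 genes by symbol 41 were lower, against 51.1% of all tested genes. Both STZ libraries lay below both controls for 12 and above for 0, against 14.3% of all tested genes each way. Mrpl34 (chromosome 8, 71464959 to 71465747), the counterpart of the small bacterial protein L34, differed most. It read 1688 and 1563 normalized counts in controls 2L and 4R, and 1531 and 1021 in the STZ pair, so STZ 2L lay just under the controls and STZ 4R well under them. Its log2 difference was -0.38 ± 0.22, and -0.085 without STZ 4R.

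Mrpl14 (chromosome 17, 45686322 to 45698495), a protein with a bacterial counterpart, read 1793 and 1764 normalized counts in the controls, and 1799 and 1131 in the STZ pair. The other libraries were nearly equal and STZ 4R stood apart, at a log2 difference of -0.32 ± 0.23 that was 0.016 without it. Mrpl41, specific to mitochondria, stood at -0.31 ± 0.18 and Mrpl18 at -0.29 ± 0.19, both with the STZ libraries below both controls. The first was -0.13 without STZ 4R and the second -0.14 without control 4R. Mrpl12, the stalk protein of the large subunit and by some accounts a partner of the mitochondrial RNA polymerase, read 1530 and 1979 normalized counts in the controls and 1582 and 1340 in STZ, with overlapping groups and a difference of -0.26 ± 0.19 that was -0.07 without control 4R. Mrpl48-ps, a pseudogene, read 223 and 228 normalized counts in the controls and 224 and 160 in STZ. Its difference of -0.25 ± 0.28 was -0.012 without STZ 4R.

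Mrpl30 was the large subunit gene furthest above 0, at a log2 difference of 0.30 ± 0.23. It read 680 and 1012 normalized counts in controls 2L and 4R and 1114 and 931 in STZ, so STZ 4R lay between the controls, and the difference was 0.0096 without control 2L. Of the other genes with the highest means in the subunit, Mrpl49 read 2439 and 2481 normalized counts in the controls and 2218 and 2423 in STZ, at -0.09 ± 0.15, and Mrpl28 stood at -0.15 ± 0.18. Across the 80 members, Spearman's rho of the mean count with the log2 difference was -0.39, and -0.06 across all tested genes, as a description of genes that share these libraries. Mrpl46 (chromosome 7, 78775236 to 78783531, minus strand), at -0.26 ± 0.23, lies head to head with Mrps11, their annotated spans overlapping by 413 bases. No other members overlap in this way.

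The subunits differed by no more than the spread between libraries. The large minus small difference between the medians was 0.05, and the same quantity computed per library varied with an SD of 0.0534 between libraries of a group. It was 0.10 without STZ 4R and -0.0065 to -0.0047 without either control. With Mrps30 and Mrps18a counted as large subunit genes it was again 0.05. The ratio of large to small subunit reads was 1.96 and 1.88 in controls 2L and 4R, and 1.98 and 1.96 in the STZ libraries. Control 4R stood lowest and the other 3 libraries were close to each other.

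Split by descent, the 30 large subunit proteins with bacterial counterparts had a median of -0.09, 23 of them lower and 7 with both STZ libraries below both controls. The 19 specific to mitochondria, Mrps30 and Mrps18a among them, had a median of -0.12, with 17 lower and 6 below both controls. In the small subunit the 16 with bacterial counterparts had a median of -0.20, 12 of them lower and 8 with both STZ libraries below both controls. The 10 specific to mitochondria had a median of -0.07, 7 of them lower, 2 with both STZ libraries below both controls and 1 above. Over all tested genes 51.1% were lower, 14.3% lay below both controls and 14.3% above. Per 1000 exon bases of the GENCODE annotation and without pseudogenes, the mean level over libraries had a median of 595 normalized counts for 47 large subunit genes and 385 for 29 small subunit genes. They reached 2515 for Mrpl14 and 2121 for Mrps21.

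**Figure D3:**
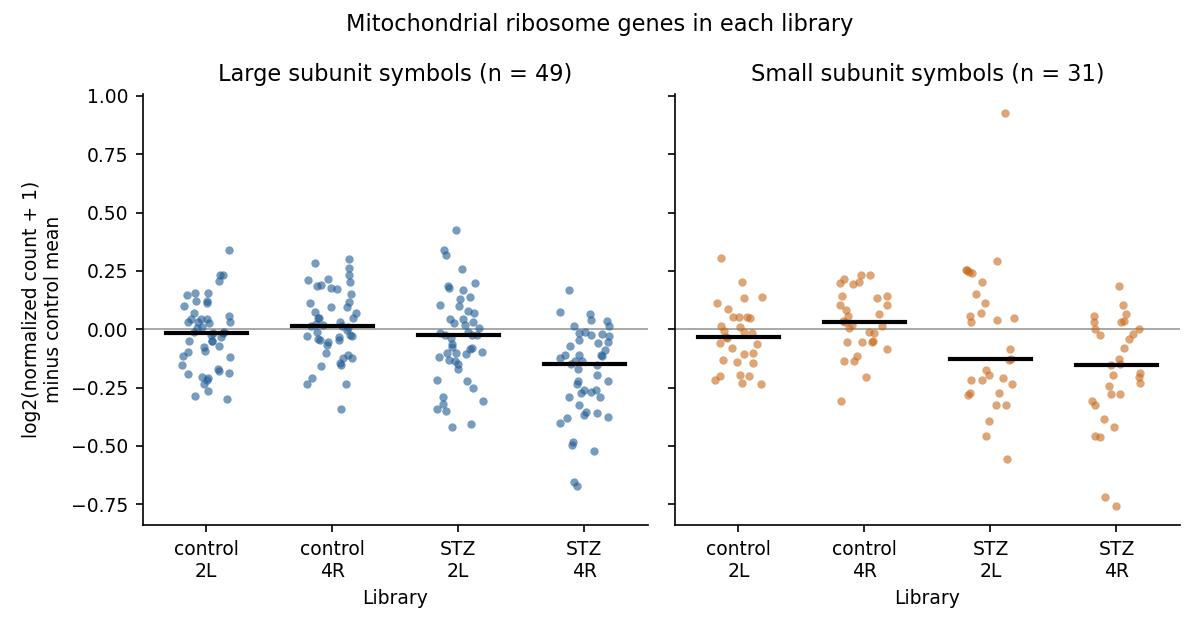
Each point is 1 gene, as log2(normalized count + 1) minus its mean over the controls, for large (left, n = 49) and small (right, n = 31) subunit symbols in each library, with the median as a bar. The large subunit medians are near 0 in every library but STZ 4R, at -0.15, and the small subunit medians are -0.13 in STZ 2L and -0.15 in STZ 4R.

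By library, STZ 4R was the lowest of the 4 for 41 members (51.2%), against 24.3% of all tested genes. Relative to the control mean the median member stood at -0.15 in STZ 4R and -0.05 in STZ 2L, and the controls themselves lay 0.017 to either side. Set against the control with the same tag, 69 members were lower in STZ 4R (49.9% of all tested genes were) and 45 in STZ 2L (52.2%), with 39 lower in both pairs (26.1%). The median absolute log2 difference of a member was 0.20 within the control pair and 0.24 within the STZ pair, against 0.25 and 0.28 over all tested genes. Without STZ 4R 46 of 80 members were lower in STZ (57.5%, all genes 51.3%) and the median was -0.05. Without STZ 2L these were 64 of 80 (all genes 49.2%) and -0.15.

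The members took 0.209% of the reads of control 2L (95% Clopper-Pearson interval 0.207 to 0.210) and 0.223% of those of control 4R (0.222 to 0.225). In the STZ libraries the shares were 0.193% for 2L (0.192 to 0.195) and 0.186% for 4R (0.184 to 0.187). Both STZ shares lay below both control shares. With lens genes left out of the total reads, the share in STZ 2L was 0.214%, between the controls, and in STZ 4R it was still 0.186%. The intervals cover counting error only. The median member had 700 to 866 reads a library, a counting error of 3.40% to 3.78%.

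The difference in STZ 4R went with exon length, counted over all annotated exons of a gene. Members had a median of 1312 exon bases, against 2922 for all tested genes with a length (17184). Among all genes, the median log2 difference of STZ 4R from the control mean was -0.25 for 1631 genes of up to 800 exon bases, -0.14 for 2650 of 800 to 1600, and 0.14 for 3698 over 5000. In STZ 2L these medians were 0.081, 0.0080 and -0.018. The 16 members of up to 800 bases stood at -0.37 in STZ 4R and the 35 of 800 to 1600 bases at -0.15, against 0.028 and -0.065 in STZ 2L. In STZ 4R the 11 of 1600 to 3000 bases stood at -0.089, the 13 of 3000 to 5000 at -0.030 and the 5 over 5000 at -0.20. In STZ 2L these stood at -0.13, -0.083 and -0.13. Across the 80 members, Spearman's rho of exon bases with the STZ 4R difference was 0.34, and 0.36 across all genes, given as a description of genes that share a library. With the difference between the groups, rho was 0.12 across the members and 0.21 across all genes. The part of length in the members' difference was not tested beyond the removal of its trend.

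With each library's trend on exon length removed, which was added once the data had been seen, the median member difference was -0.08 and 55 of 80 members were lower (68.8%, all genes 50.8%). The medians were then -0.07 and -0.05 in STZ 2L and 4R, close to each other. By subunit they were -0.07 for the large and -0.09 for the small, and 17 members (21.2%) had both STZ libraries below both controls, against 14.2% of all genes. Mrps11 stood at -0.39 and Mrps21 at -0.37.

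**Figure D4:**
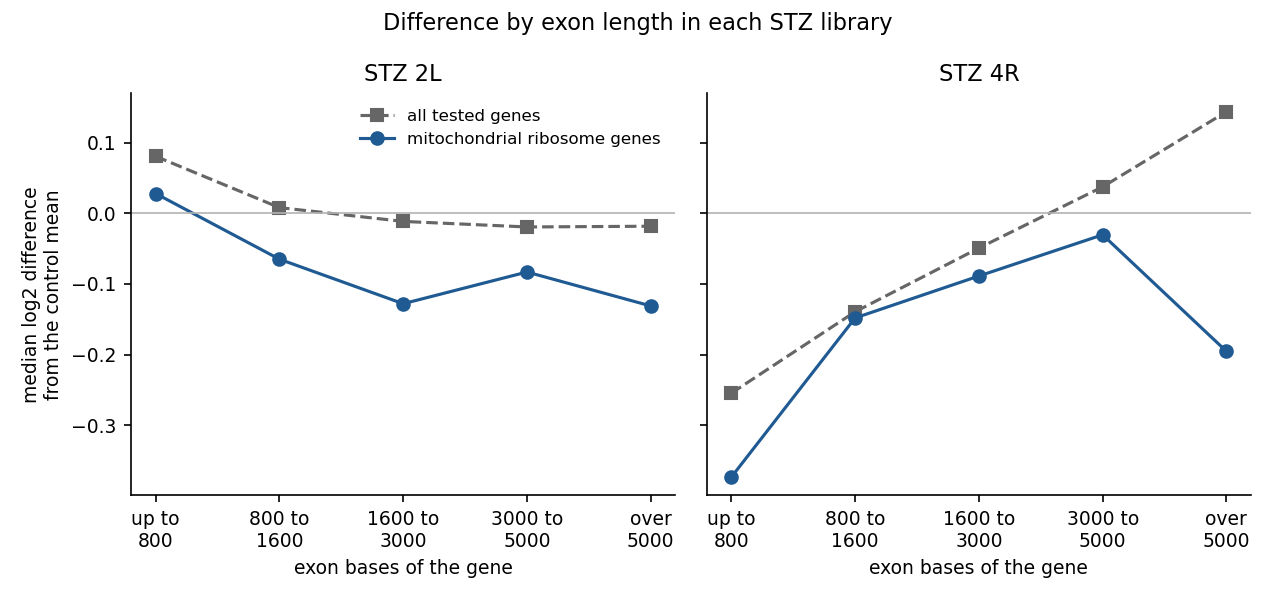
Median log2 difference from the control mean by exon bases of the gene, for all tested genes (squares) and mitochondrial ribosome genes (circles), in STZ 2L (left) and STZ 4R (right). In STZ 4R all genes climb from -0.25 in the shortest class to 0.14 in the longest, while in STZ 2L they change little, and the members lie below all genes in every class of both panels.

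The rest of the mitochondrial translation system was read from gene lists by role. Limma called 0 members of each, and 0.0% of all tested genes in either direction. Of all tested genes 51.1% were lower in STZ, and 14.3% had both STZ libraries below both controls. Mitoribosomal proteins under other symbols were lower in 5 of 6 cases, with a median of -0.17. Among them Dap3, a small subunit protein also known from cell death, read 1768 and 2041 normalized counts in the controls and 1676 and 1862 in STZ, at -0.10 ± 0.17. Gadd45gip1 and Ict1, both large subunit proteins in mammals, stood at -0.21 ± 0.18 and -0.17 ± 0.17, each with the STZ libraries below both controls, and Ptcd3 of the small subunit at -0.18 ± 0.19.

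The translation factors were lower in 10 of 14 cases (51.1% of all tested genes were), with a median of -0.09. Tufm, the elongation factor that carries aminoacyl-tRNA to the ribosome, overlapped between the groups at -0.09 ± 0.18, and its exchange factor Tsfm stood at -0.22 ± 0.20. Taco1, an activator of mt-Co1 translation, stood at -0.22 ± 0.21 and the elongation factor Guf1 at 0.18 ± 0.18. Ribosome assembly genes were lower in 15 of 23 cases (median -0.04), with the helicase Ddx28 at -0.28 ± 0.19, the GTPase Mtg1 at -0.28 ± 0.20 and the large subunit assembly factor Malsu1 at 0.32 ± 0.23.

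Aminoacyl-tRNA synthetases and amidotransferase subunits were split, 11 of 20 lower (51.1% of all tested genes were), at a median of -0.03. The gene listed as Lars2, the leucyl-tRNA synthetase, read 44635 and 36831 normalized counts in controls 2L and 4R and 56181 and 55812 in STZ, far above every other gene of its list. Whether all these reads come from the synthetase transcript could not be settled from the table, so the value is that of the listed gene only. Both STZ libraries were above both controls (as for 14.3% of all tested genes), at 0.47 ± 0.20 (limma, adjusted p = 0.999). Ears2, for glutamate, stood at 0.26 ± 0.23 and Gatc, a subunit of the glutaminyl-tRNA amidotransferase, at -0.23 ± 0.17. Transcription and mRNA stability genes were lower in 6 of 12 cases (median -0.04). Polrmt, the mitochondrial RNA polymerase, read 1708 and 1585 normalized counts in the controls and 1317 and 1370 in STZ, at -0.29 ± 0.16, while Tfam, which packages mitochondrial DNA and starts its transcription, stood at 0.021 ± 0.19. Slirp, which stabilises mitochondrial mRNAs, stood at -0.24 ± 0.24 and the polyadenylating enzyme Mtpap at 0.26 ± 0.23. Of the 9 regulators, 7 were higher (median 0.05), with Gabpa at 0.28 ± 0.18, Yy1 at 0.25 ± 0.17 and Esrra at -0.20 ± 0.25.

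The RNAs of the ribosome and its templates, which come from the mitochondrial genome, followed the libraries more than the groups. The small subunit rRNA mt-Rnr1 read 13234 and 9799 normalized counts in controls 2L and 4R and 12765 and 9520 in STZ 2L and 4R. Both 2L libraries were high and both 4R libraries low, and the group difference was -0.05 ± 0.21. The large subunit rRNA mt-Rnr2 was likewise higher in both 2L than in both 4R libraries, at 0.095 ± 0.20. The libraries were made from purified mRNA, so rRNA was not their target. Of 13 mitochondrial mRNAs 12 were lower in STZ (51.1% of all tested genes were), with a median of -0.23. STZ 4R was the lowest library for 12 of the 13, against 24.3% of all tested genes. The cytochrome oxidase subunit mt-Co2 read 14879 and 13342 normalized counts in the controls and 13336 and 10014 in STZ, at -0.29 ± 0.19. The medians of these mRNAs were 0.13 above the control mean in STZ 2L and -0.60 in STZ 4R, and the controls lay 0.25 to either side. The mRNAs mt-Nd4 and mt-Co3 stood at -0.30 ± 0.31 and -0.23 ± 0.23 with overlapping groups.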

How the data were processed

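Per the labels' protocols, polyadenylated RNA of dissected retina was made into Ion Torrent libraries and analysed in Torrent Suite 5.4.0, with STAR and then Bowtie2 on mm10 and counting by HTSeq and Picard. The annotation release and the strand setting were not given in the sources used here. For the 24 members that share exon bases with another gene, reads on the shared bases therefore cannot be told apart. For 20 of them the shared genes lie on the opposite strand alone. Of the 56 members without shared exon bases 46 were lower in STZ (51.1% of all tested genes were), at a median log2 difference of -0.12. The authors deposited a signal of gene counts divided by 1 size factor per library. The authors' deposited table also holds a log2 fold change, its standard error, a test score and p-values, with an adjusted p for 18478 genes. All values (100%) were whole multiples of 1 step within 0.01 reads. The 4R columns name their group, but the tag 4R is on no label, and the labels give 4L instead. These columns were used as replicates of their group.

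Because the table held normalized and not raw values, the test was limma 3.58.1 (R 4.3.3) with a mean-dependent prior on log2(value + 1), all 4 libraries, treatment only, two-sided, Benjamini-Hochberg adjusted over all tested genes. Differences are on that scale, which understates low genes, with standard errors. edgeR 4.0.16 and DESeq2 1.42.0 were run on recovered reads. Fits were tried on simulated counts whose changed genes differed by more than any member here, without a length trend or lens reads. That trial does not bear on differences as small as those of the members. Exon bases and positions are from GENCODE M21 (GRCm38). Named genes were, per subunit, the 8 largest differences and 3 highest means, always Mrps30, Mrps18a and Mrps36, and the 3 smallest p of each related list with mt-Rnr1, mt-Rnr2, Dap3, Tufm and Tfam. Members and lists were chosen with earlier results of these data known. Alternatives were TMM, quantile and lens-free scaling, no filter or one at 50, pseudocounts of 0.5 and 5, a robust prior, omitted libraries and a replicate block.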

Additional observations from a re-analysis of the deposited data

How the results depend on the processing

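Under every alternative the median over members stayed below 0, from -0.16 without control 2L to -0.05 without STZ 4R. The large subunit median ranged from -0.16 to -0.024 over the omissions of 1 library. The small subunit median ranged from -0.16 to -0.094 over them, and was -0.19 after quantile normalization and -0.085 with the exon length trend removed, an alternative added after seeing the data. The difference of the subunit medians ranged from -0.0065 to 0.10 when 1 library was left out. The mean share of reads in STZ was 0.190% and 0.200% without lens genes. Calls over all genes were 0 in both directions. They were 47 higher with DESeq2, 13 with no filter, 2 with lens-free scaling and 3 with a robust prior. Omitting 1 library gave 8 to 551 higher, 0 to 40 lower and 0 to 1 members, but those fits assume that a lone library varies like the other group, and the cause was not tested. Deviations from the group means correlated at 0.0988 between the 2L libraries over 18127 genes. With 2 libraries a group, the value for 4R is the same by construction. It cannot decide whether the same tag pairs the libraries. The replicate block called 0 genes and 0 members.

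When 1 library was left out, these log2 differences crossed 0: Mrpl14 (-0.65 to 0.016), Mrpl46 (-0.53 to 0.00069), Mrpl28 (-0.33 to 0.027), Mrps24 (-0.76 to 0.20), Mrps30 (-0.019 to 0.29), Mrps36 (-0.48 to 0.13), mt-Rnr1 (-0.26 to 0.17), mt-Rnr2 (-0.054 to 0.24), mt-Co3 (-0.56 to 0.094), mt-Nd4 (-0.72 to 0.11), Esrra (-0.49 to 0.098), Tufm (-0.23 to 0.052) and Tfam (-0.080 to 0.12). After quantile normalization mt-Rnr2 stood at -0.0059 and Tfam at -0.016, and with the length trend removed mt-Rnr1 stood at 0.029 and Tfam at -9.4e-05.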

Other observations

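The proteins of the cytosolic ribosome, 77 genes taken by symbol after their values were seen, were read in the same libraries. Of these 51 were higher in STZ and the median log2 difference was 0.08. Both STZ libraries lay below both controls for 0 and above for 6 (7.79%), against 14.3% of all tested genes each way. Their medians were 0.33 above the control mean in STZ 2L and -0.21 in STZ 4R, so the STZ libraries lay on either side of the controls, where the mitochondrial ribosome genes stood at -0.05 and -0.15. The difference between the lists was not tested.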
